A study of Homo sapiens with 54 samples.

Results

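The 9 genes described here are markers and regulators long used to recognise stem cells and stem-like tumour cells: the transcription factors SOX2, SOX9, KLF4 and NANOG, the aldehyde dehydrogenases ALDH1A1 and ALDH1A3, and the surface proteins CD44, PROM1 (CD133) and LGR5. They were taken by name, not by their values, from 19974 protein-coding genes, though with earlier results of these data known. Of the 9, 8 passed the filter on low values. ATAC-seq, in which a transposase cuts and tags accessible DNA, was run on bulk nuclei of 2 human cancer lines. MDA-MB-231 is a triple-negative breast cancer line with mesenchymal features, and PC3 is a prostate cancer line from a bone metastasis that lacks androgen receptor signalling. Each line had an untreated control group, a group of cells that survived cisplatin and were collected 1 day after the drug was taken away, and a group collected 10 days after. The labels name no genotype, transgene or further agent in any group, and give neither the dose nor the duration of cisplatin. Treated groups hold only the cells that outlived the drug, so selection of cells and change within cells cannot be told apart. Each of the 6 groups had 3 biological replicates and each replicate is 1 peak list here, so n = 3 lists per group throughout. Nothing in the labels says whether the replicates were separate cultures, so the p-values measure the spread between these lists, which may be technical.

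SOX2 and NANOG belong to the core transcription factor circuit of pluripotent cells, and KLF4 is a zinc finger factor used with SOX2 to reprogram somatic cells. SOX9 directs chondrocyte fate and marks stem or progenitor cells of several epithelia. ALDH1A1 and ALDH1A3 oxidise retinaldehyde to retinoic acid, and high aldehyde dehydrogenase activity is a common sorting criterion for stem-like breast and prostate cancer cells. CD44 is a receptor for hyaluronan, PROM1 is a cholesterol-binding protein of membrane protrusions, and LGR5 is a receptor for R-spondins that marks intestinal and hair follicle stem cells and enhances Wnt signalling. Platinum drugs such as cisplatin crosslink DNA. A peak near a gene reports accessible DNA, not transcription.

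Start sites split the members into open and closed ones, and the sequence just before the start is shown for both kinds because this split held in every list. RefSeq's promoter table (GRCh38.p14) has entries for 7 of the 9 members, with windows from 250 bases before to 50 bases after the start. SOX2, KLF4, CD44 and ALDH1A3 had a peak over this window in 18 of 18 lists. NANOG, ALDH1A1 and all 4 listed starts of PROM1 had one in 0 of 18. Among 22132 such windows of coding genes, 49.8% had a peak in all 18 lists and 32.3% in none, so both states are common. The 250 bases before the start follow, 5′ to 3′ on the gene's own strand, with matches to 6 short motifs in capitals.
The 4 open starts lie on GRCh38.p14 at chr3:181711675-181711924 (SOX2, plus strand), chr9:107489770-107490019 (KLF4, minus strand), chr11:35138921-35139170 (CD44, plus strand) and chr15:100879581-100879830 (ALDH1A3, plus strand).
SOX2: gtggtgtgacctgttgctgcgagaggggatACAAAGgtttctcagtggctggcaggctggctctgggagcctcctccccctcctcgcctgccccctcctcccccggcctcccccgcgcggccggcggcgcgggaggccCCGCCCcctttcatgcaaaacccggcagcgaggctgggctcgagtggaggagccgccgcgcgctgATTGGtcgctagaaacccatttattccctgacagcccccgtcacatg
KLF4: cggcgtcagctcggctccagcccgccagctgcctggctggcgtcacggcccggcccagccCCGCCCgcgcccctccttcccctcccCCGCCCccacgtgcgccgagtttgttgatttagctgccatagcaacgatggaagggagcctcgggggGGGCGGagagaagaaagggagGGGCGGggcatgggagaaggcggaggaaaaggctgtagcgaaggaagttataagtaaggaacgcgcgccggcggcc
CD44: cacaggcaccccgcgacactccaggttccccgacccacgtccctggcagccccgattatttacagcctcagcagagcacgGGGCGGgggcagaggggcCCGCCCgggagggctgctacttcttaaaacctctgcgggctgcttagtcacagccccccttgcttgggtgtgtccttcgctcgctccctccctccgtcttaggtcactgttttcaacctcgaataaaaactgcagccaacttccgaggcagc
ALDH1A3: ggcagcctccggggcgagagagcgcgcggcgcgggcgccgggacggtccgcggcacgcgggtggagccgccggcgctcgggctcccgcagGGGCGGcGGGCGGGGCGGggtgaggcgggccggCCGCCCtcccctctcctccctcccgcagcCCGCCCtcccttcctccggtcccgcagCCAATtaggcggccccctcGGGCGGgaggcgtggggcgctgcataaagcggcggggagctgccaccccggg
The closed starts lie at chr12:7789152-7789401 (NANOG, plus strand), chr9:72953054-72953303 (ALDH1A1, minus strand) and, for the outermost of the 4 starts of PROM1, chr4:16084024-16084273 (minus strand).
NANOG: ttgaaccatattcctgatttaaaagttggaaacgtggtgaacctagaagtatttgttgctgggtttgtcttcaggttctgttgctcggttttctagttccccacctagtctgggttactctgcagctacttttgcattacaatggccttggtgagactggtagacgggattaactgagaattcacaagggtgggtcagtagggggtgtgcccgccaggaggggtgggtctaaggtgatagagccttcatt
ALDH1A1: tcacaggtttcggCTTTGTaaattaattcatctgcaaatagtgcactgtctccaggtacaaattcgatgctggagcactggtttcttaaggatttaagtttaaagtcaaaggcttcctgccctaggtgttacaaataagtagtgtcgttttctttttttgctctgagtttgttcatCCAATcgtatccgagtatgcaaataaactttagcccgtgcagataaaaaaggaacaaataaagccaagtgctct
PROM1: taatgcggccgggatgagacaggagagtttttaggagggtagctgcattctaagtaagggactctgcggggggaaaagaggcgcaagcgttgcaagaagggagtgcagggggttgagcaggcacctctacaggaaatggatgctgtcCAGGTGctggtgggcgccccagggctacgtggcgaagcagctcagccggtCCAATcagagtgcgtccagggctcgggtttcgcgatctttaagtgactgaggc

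The open starts are rich in G and C: 82.4% of bases for ALDH1A3, 69.2% for KLF4, 68.8% for SOX2 and 62.4% for CD44, against a median of 58% over 35116 promoters. ALDH1A1 had 38.4% and NANOG 47.6%, while the 4 starts of PROM1 ranged from 56.8% to 68.8%, so the closed starts were not all poor in G and C. The GC box, GGGCGG on either strand, is the recognition sequence of SP and KLF family factors. It occurred 6 times in ALDH1A3, 4 times in KLF4, 2 times in CD44 and 1 time in SOX2, and in none of the printed closed starts. GGGCGG was present in 42.6% of all promoters. One of the inner PROM1 starts, not printed, held 1 copy. CCAAT (32% of promoters) was found 1 time each in SOX2, ALDH1A3, ALDH1A1 and the printed PROM1 start. ACAAAG, the core of SOX factor sites (13.7%), was found 1 time in SOX2 and 1 time in ALDH1A1, and CAGGTG, an E-box (17.5%), 1 time in the printed PROM1 start. TATAAA (10.7%) was in none of them, and the AP-1 site TGANTCA (6.57%) only in the innermost PROM1 start. A pair of the ALDH1A3 matches overlap each other by position. These are matches of letters, not measured binding sites.

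The 18 lists held from 82392 to 165535 peaks covering 54.4 to 82.3 Mb, and without read counts in them the depth cannot be given. Treated lists were longer than control lists: 100564 to 133526 peaks at day 1 and 103830 to 126462 at day 10 in MDA-MB-231 against 82392 to 98777 in controls, and 115050 to 165535 in treated PC3 against 106577 to 114731. List 1 had the narrowest peaks and the least cover of its group in every group but PC3 controls. Its median peak width was 365 bp in MDA-MB-231 controls against 592 and 587 bp in lists 2 and 3. In treated MDA-MB-231 it was 350 against 522 and 459 bp at day 1, and 333 against 422 and 401 bp at day 10. In treated PC3 it was 346 against 541 and 455 bp at day 1, and 320 against 421 and 480 bp at day 10. Line labels were checked on marker genes. The prostate gene HOXB13 had 8.91 to 13.8 kb of peak cover in PC3 and 0.502 to 1.53 kb in MDA-MB-231. KLK3 was at 0 in 7 of 9 MDA-MB-231 lists and covered by 0.693 to 1.32 kb in PC3, and the mesenchymal gene VIM had 5.03 to 6.93 kb in MDA-MB-231 and 2.60 to 3.11 kb in PC3. Of the blood gene PTPRC, 4 and 5 of 9 lists had no cover. The 6 other blood, endothelial and fibroblast genes examined had cover in every list (lowest 2.03 kb, CD3E), so cover of a gene window does not by itself mark a cell type.

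For each gene, peak cover is the summed length of peaks from 10 kb below to 10 kb above the gene, after every list was brought to the same total covered length, their mean. Differences were tested with limma, with Benjamini-Hochberg adjustment over 16816 genes, and are log2 changes of cover + 500 bp, which understate changes of thinly covered genes. A change is called at an adjusted p under 0.05. Long genes have more room for peaks, so levels of different members are compared as a share of the window. In untreated MDA-MB-231 that share was 17.8% ± 0.938 (SD, n = 3) for KLF4, 13.9% ± 1.57 for SOX9, 9.12% ± 1.22 for CD44, 8.66% ± 2.90 for SOX2, 8.19% ± 0.577 for ALDH1A3, 2.52% ± 0.329 for NANOG, 2.48% ± 0.0232 for LGR5 and 1.01% ± 0.342 for PROM1. In untreated PC3 SOX9 had the highest share, 19.5% ± 2.13, and NANOG the lowest above 0, 0.736% ± 0.0167.

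**Figure D1:**
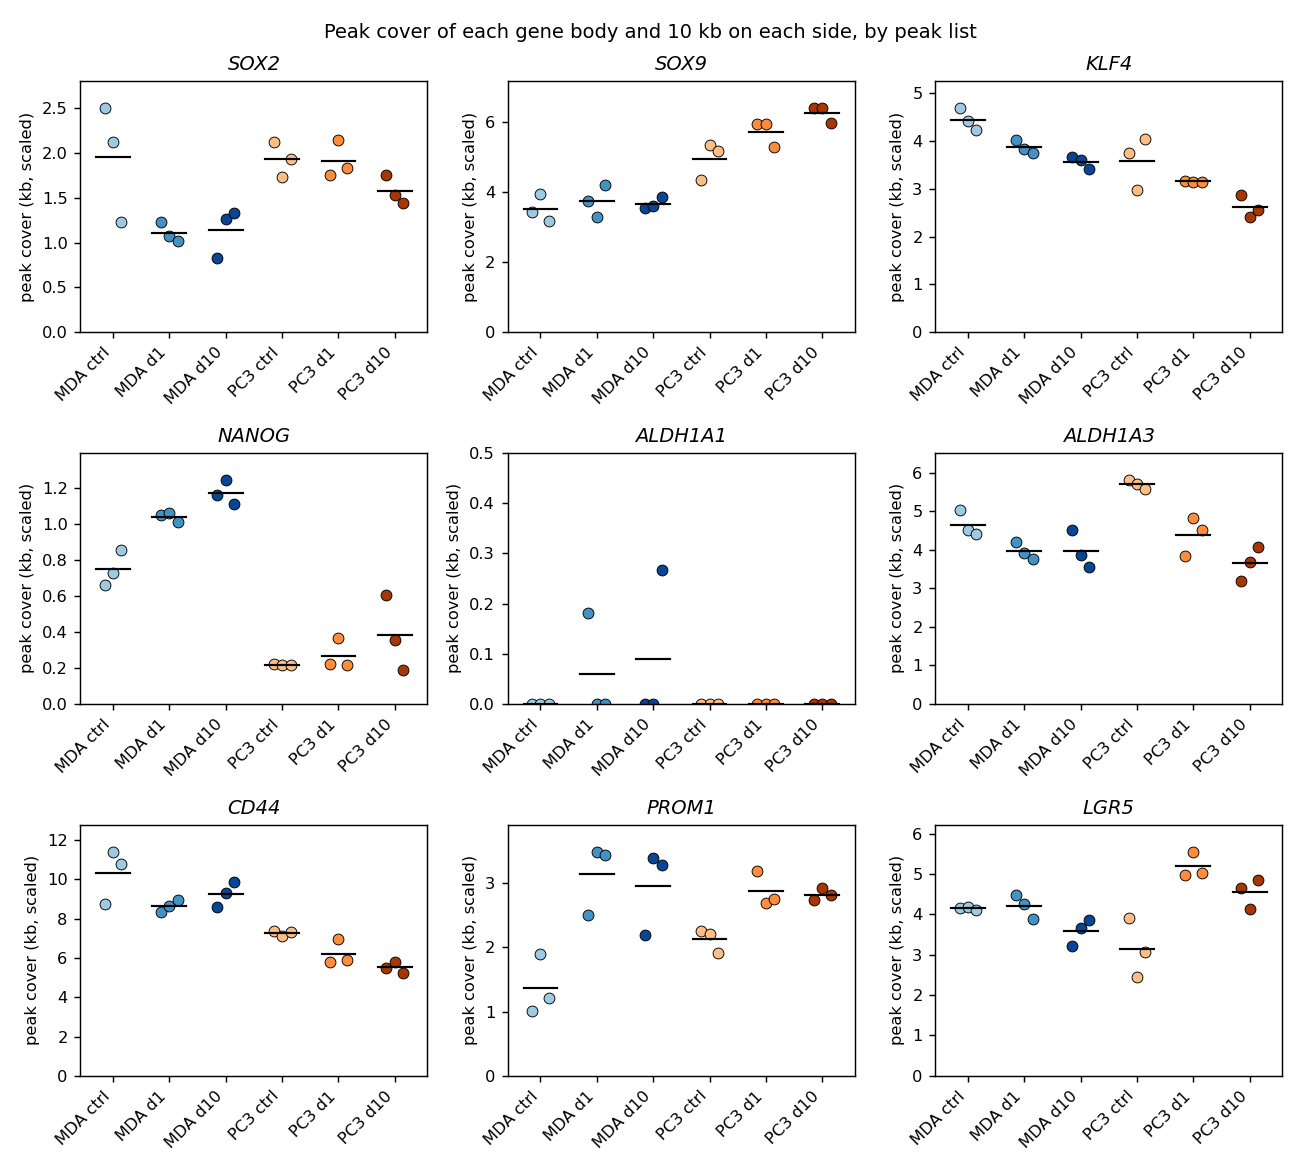
Scaled peak cover (kb, vertical axis from 0) of each of the 9 genes in the 18 peak lists; points are lists ordered by replicate number, horizontal lines are group means, MDA is MDA-MB-231 and d is day. PROM1 is lowest in MDA-MB-231 controls, LGR5 is higher in treated than in control PC3, and ALDH1A1 is above 0 in only 2 lists.

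Of the pluripotency factors, SOX2 lost cover in treated MDA-MB-231, and in PC3 no change passed the test. Its window had only 3 regions of peaks in MDA-MB-231 and also holds sequence of the long noncoding RNA gene SOX2-OT. Its cover was 2.50, 2.12 and 1.23 kb in the MDA-MB-231 control lists, 1.23, 1.07 and 1.02 kb at day 1 and 0.824, 1.26 and 1.33 kb at day 10. Control list 3 fell among the treated lists, so the groups overlap. The log2 change was -0.57 (SE 0.16) at day 1 (adjusted p = 0.0181) and -0.56 (SE 0.16) at day 10 (adjusted p = 0.0187). The peak over the start site spanned 998, 1102 and 1051 bp in controls, 991, 1063 and 1099 bp at day 1 and 687, 1078 and 1127 bp at day 10 (unscaled), so 1 day 10 list was narrower there. Flanking peaks were found less often in treated lists: a region at -2.11 kb from the start had a peak in 3 control lists and 1 list at each later time, and a region at 0.87 kb in 2 control lists and 0 treated ones. Both flanking regions were of low area within their lists, at median area percentiles of 6.89 and 16.6 in controls, where the area is the authors' score of each peak. When only the 50000 peaks of highest area per list were kept, the SOX2 changes were 0.06 and 0.07, and the adjusted p rose above the threshold without control list 1 (0.0947 and 0.0988), control list 2 (0.0718 and 0.0734), day 1 list 3 (0.0693) or day 10 list 1 (0.0972). In PC3, SOX2 means were 1.93 ± 0.194 kb in controls, 1.91 ± 0.211 kb at day 1 and 1.57 ± 0.160 kb at day 10 (adjusted p = 0.978 and 0.268). PC3 had a peak at -9.79 kb from the start in 9 of 9 lists, and no MDA-MB-231 list had it.

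NANOG, the homeobox factor that keeps pluripotent cells undifferentiated, had its start site closed throughout but gained a peak inside the gene in treated MDA-MB-231. Its cover was 0.661, 0.729 and 0.854 kb in control lists, 1.05, 1.06 and 1.01 kb at day 1 and 1.16, 1.24 and 1.11 kb at day 10. All treated lists lay above all controls. The rise was 0.42 (SE 0.14) at day 10 (adjusted p = 0.0315), and the day 1 difference of 0.30 (SE 0.14) missed the threshold (adjusted p = 0.114). Each control list had 2 peaks in the window and each treated list 3, and the added one, chr12:7797643-7798007, was in 0 control lists and 6 treated lists of MDA-MB-231, 8.42 kb after the start. In PC3 that region had a peak in 2 of 3 day 10 lists and in 0 of the other 6. PC3 covered the NANOG window thinly: 0.224, 0.217 and 0.215 kb in controls, 0.224, 0.366 and 0.214 kb at day 1 and 0.604, 0.355 and 0.186 kb at day 10 (adjusted p = 0.69 and 0.127). In PC3 controls and at day 1 this cover was a single peak beyond the end of the gene, chr12:7806938-7807371. Both peaks of the MDA-MB-231 controls also lay beyond the gene, 15.9 and 17.8 kb after its start. No control list of either line thus had cover inside NANOG itself. The day 10 call in MDA-MB-231 was sensitive to single lists: without any 1 of them other than control list 3, the adjusted p was from 0.0561 to 0.0962, with a change from 0.37 to 0.45. Of 9 other settings in which NANOG was tested, 7 kept the call. It was lost without scaling (0.40, adjusted p = 0.0787) and with 100 bp added in place of 500 bp (0.59, adjusted p = 0.0908).

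KLF4 lost cover at day 10 in both lines. It acts as activator or repressor depending on the gene, and restrains growth in many epithelia. In MDA-MB-231 its cover was 4.69, 4.42 and 4.23 kb in controls, 4.03, 3.83 and 3.76 kb at day 1 and 3.68, 3.61 and 3.42 kb at day 10, so that the groups followed each other without overlap. The change at day 10 was -0.28 (SE 0.091; adjusted p = 0.0289), and at day 1 -0.18 (SE 0.091; adjusted p = 0.156). In PC3 cover was 3.76, 2.97 and 4.04 kb in controls, 3.17, 3.15 and 3.15 kb at day 1 and 2.87, 2.41 and 2.56 kb at day 10. The PC3 change was -0.39 (SE 0.091) at day 10 (adjusted p = 0.00286) and -0.15 (SE 0.091) at day 1 (adjusted p = 0.251). The peak over the start kept its width in MDA-MB-231, at 1532 to 1568 bp in controls and 1518 to 1569 bp at day 10. The peak that disappeared was just upstream, chr9:107491130-107491965, at -1.78 kb from the start: all 6 control and day 1 lists of MDA-MB-231 had it and no day 10 list and no PC3 list did. In PC3 the region over the gene body, 1.73 kb after the start, covered 1858 to 2333 bp in controls, 2240 to 2331 bp at day 1 and 1643 to 1884 bp at day 10. In MDA-MB-231 the day 10 call was lost without control list 1 or 2 (adjusted p = 0.0926 and 0.0661) and without day 10 list 2 or 3 (0.059 and 0.0924), with median-of-ratios scaling (-0.17, adjusted p = 0.167), in the gene body alone (-0.04, adjusted p = 0.853) and with 50 kb on each side (-0.03, adjusted p = 0.81), and the change was 0.18 in the 50000 highest-area peaks (adjusted p = 0.763). In PC3 it was -0.17 without scaling (adjusted p = 0.218) and -0.12 relative to the chromosome's cover (0.283).

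SOX9 cover rose in PC3 at day 10. SOX9 cover was 4.34, 5.35 and 5.19 kb in PC3 controls, 5.94, 5.95 and 5.31 kb at day 1 and 6.41, 6.41 and 5.97 kb at day 10. Day 10 lists lay above all controls, and day 1 lists overlapped them. The change was 0.31 (SE 0.098) at day 10 (adjusted p = 0.0154) and 0.19 (SE 0.098) at day 1 (adjusted p = 0.18). The broad region over the end of the gene at lower position covered 2576 to 2625 bp in PC3 controls and 2570 to 2619 bp at day 10. The highest-area peak of the window ranked at percentile 98.9 to 99.8 of its PC3 list. More peaks lay in the window after treatment, with 5 or 6 peaks in controls, 7 to 10 at day 1 and 9 to 11 at day 10. In MDA-MB-231 SOX9 means were 3.53 ± 0.399, 3.75 ± 0.467 and 3.67 ± 0.182 kb, with adjusted p of 0.598 and 0.713. Without PC3 control list 1 the day 10 change was 0.23 (adjusted p = 0.0862), and with the gene body alone 0.18 (adjusted p = 0.271).

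**Figure D2:**
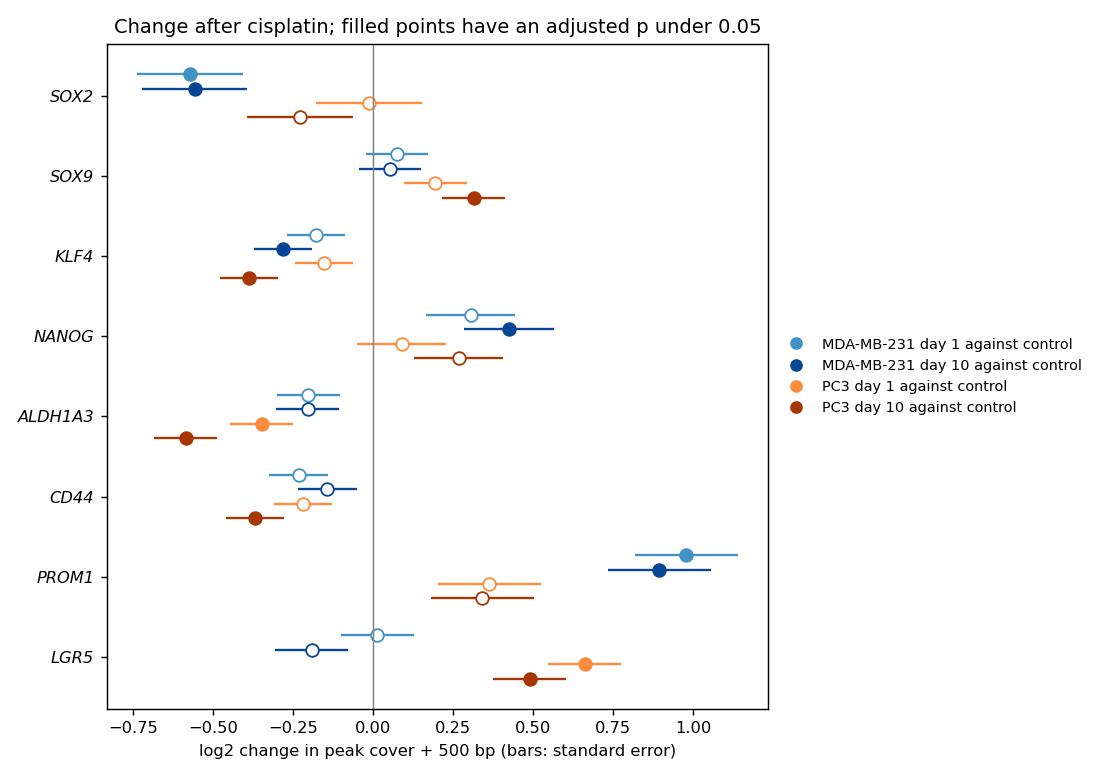
Log2 change of peak cover + 500 bp against control for the 8 tested genes (horizontal axis; points are limma estimates over 3 lists per group, bars are standard errors, filled points are called at an adjusted p under 0.05). PROM1 has the largest rise, in MDA-MB-231, LGR5 rises in PC3, and the lowest values are those of SOX2 in MDA-MB-231 and of ALDH1A3 in PC3 at day 10.

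The aldehyde dehydrogenases differed from each other. ALDH1A1, the cytosolic form, was nearly without peaks: 16 of 18 lists had 0 bp in its window, 1 MDA-MB-231 day 1 list had a peak of 174 bp and 1 day 10 list a peak of 271 bp, both at other places and both low in area (percentiles 1.74 and 13.6). It did not pass the filter and was not tested. With 50 kb on each side it passed, but that window takes in neighbouring sequence, so no difference is given for it. ALDH1A3, the form most often tied to aldehyde dehydrogenase activity in breast cancer lines, had broad open chromatin in both lines. Its window also holds LRRK1 and the antisense gene ALDH1A3-AS1, so its peaks are not its own only.

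ALDH1A3 lost cover in PC3 after cisplatin. Its cover was 5.82, 5.71 and 5.59 kb in PC3 controls, 3.85, 4.84 and 4.51 kb at day 1 and 3.20, 3.69 and 4.07 kb at day 10. No treated list reached the controls. The change was -0.35 (SE 0.099) at day 1 (adjusted p = 0.0296) and -0.58 (SE 0.099) at day 10 (adjusted p = 0.000256). Over the start site, peaks covered 1052, 926 and 1726 bp in controls, 937, 1284 and 865 bp at day 1 and 307, 361 and 312 bp at day 10 (unscaled), so the start-site peak of the printed sequence was narrowest at day 10. The widest region, chr15:100916766-100920378, begins just beyond the end of the gene and covered 2949, 3236 and 2970 bp in controls, 1656, 2824 and 2659 bp at day 1 and 1374, 2186 and 2371 bp at day 10. With the gene body alone the PC3 changes were 0.28 at day 1 (adjusted p = 0.209) and -0.06 at day 10 (adjusted p = 0.76). The day 1 call was also lost without scaling (-0.09, adjusted p = 0.709), with median-of-ratios scaling (-0.26, adjusted p = 0.0795) and relative to the chromosome (-0.23, adjusted p = 0.118). The day 1 call, but not the day 10 call, was lost without any PC3 control list (adjusted p = 0.0718, 0.0651 and 0.0684) or without day 1 list 1 or 3 (0.132 and 0.0685). In MDA-MB-231 the means were 4.65 ± 0.328, 3.97 ± 0.221 and 3.98 ± 0.479 kb, and neither difference passed (adjusted p = 0.137 and 0.131).

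**Figure D3:**
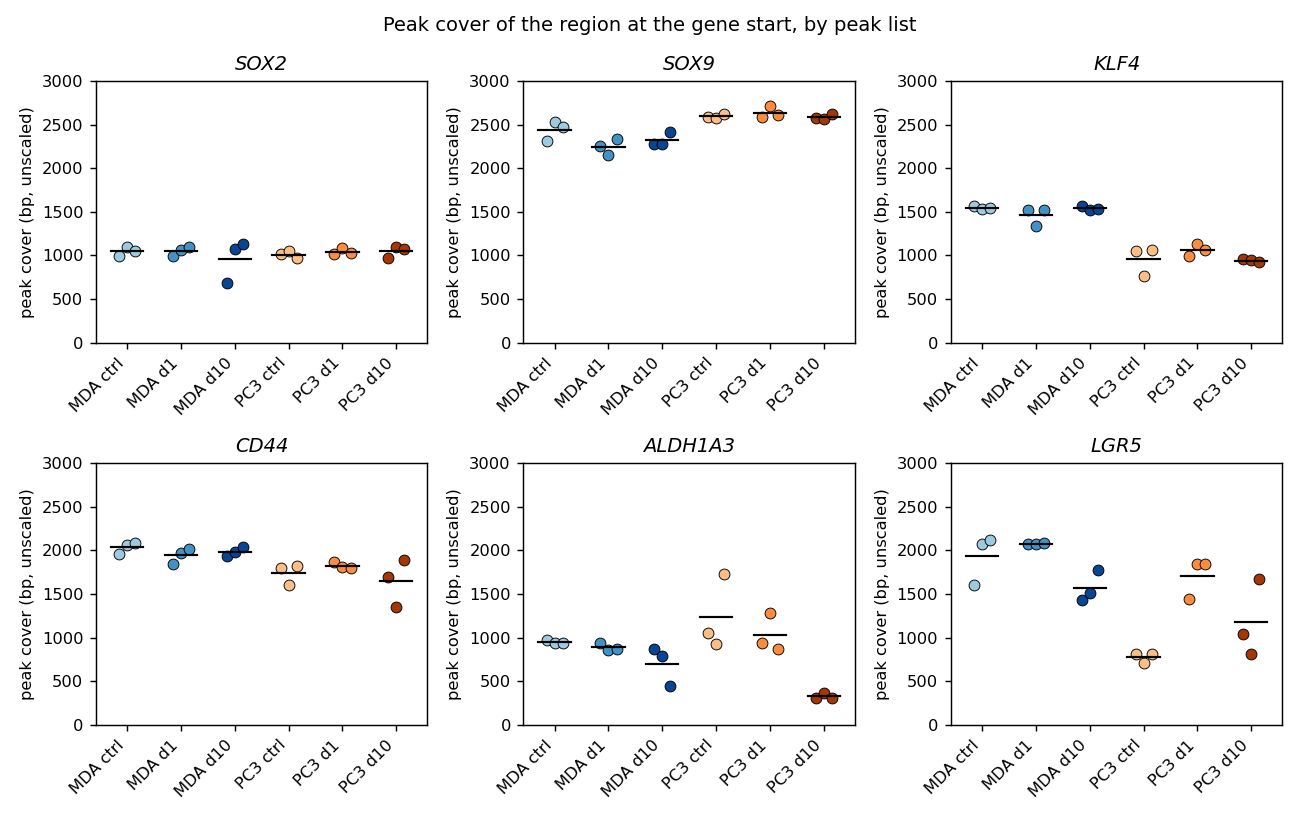
Unscaled peak cover (bp, vertical axis from 0) of the region at the gene start, or for SOX9 and LGR5 at the gene end of lower position, in the 18 lists; points are lists and lines group means. ALDH1A3 drops to between 307 and 361 bp in PC3 at day 10, LGR5 is lowest in PC3 controls at 710 to 814 bp, and SOX2 differs little between groups.

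Among the surface markers, PROM1 showed the largest rise of all members. Its cover was 1.02, 1.90 and 1.21 kb in MDA-MB-231 controls, 2.51, 3.49 and 3.44 kb at day 1 and 2.20, 3.39 and 3.29 kb at day 10. Every treated list was above every control. The change was 0.98 (SE 0.16) at day 1 (adjusted p = 0.000397) and 0.89 (SE 0.16) at day 10 (adjusted p = 0.000599), and both calls held when any 1 list was left out. Controls had 2 or 3 peaks in the window and treated lists from 6 to 9. That window also holds the coding gene FGFBP2, so its peaks may not all belong to PROM1. In PC3, cover was 2.26, 2.21 and 1.92 kb in controls, 3.19, 2.70 and 2.76 kb at day 1 and 2.73, 2.92 and 2.82 kb at day 10. Both treated PC3 groups lay above the controls and overlapped each other, but the differences of 0.36 and 0.34 (SE 0.16) did not pass (adjusted p = 0.136 and 0.094).

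The PROM1 peaks that appeared lay inside the gene and not at its starts. The region with the highest area, chr4:16000987-16002020, 82.5 kb into the gene, had a peak in 18 of 18 lists. In MDA-MB-231, chr4:15982943-15983838 was gained at day 1, and chr4:15990976-15991232, chr4:16067487-16067779 and chr4:16079159-16079401 at day 10, where gained means a peak in all 3 treated lists and in no control list. In PC3, chr4:16067300-16067784 was gained at both times, and chr4:16029418-16029653 and chr4:16079144-16079398 at day 10. Regions 4.75 and 16.5 kb into the gene were thus absent from all 6 control lists and present in all 6 day 10 lists of both lines. At day 1 the region 16.5 kb in had a peak in 2 MDA-MB-231 and 3 PC3 lists, and the one 4.75 kb in had a peak in 0 and 1. In the group that gained them, the 4 MDA-MB-231 regions had median area percentiles of 43.1, 42.9, 9.15 and 40.1. Among the 50000 highest-area peaks, the MDA-MB-231 changes were 0.49 (adjusted p = 0.18) and 0.33 (adjusted p = 0.435), and those in PC3 were 0.15 and -0.46 (adjusted p = 0.772 and 0.103).

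CD44 had the greatest covered length of the members in untreated cells of both lines and lost cover in PC3 at day 10. Its cover was 7.39, 7.11 and 7.34 kb in PC3 controls, 5.79, 6.94 and 5.87 kb at day 1 and 5.51, 5.82 and 5.25 kb at day 10. Treated lists were all below controls. The change was -0.37 (SE 0.091) at day 10 (adjusted p = 0.00391) and -0.22 (SE 0.091) at day 1 (adjusted p = 0.113). Most regions were constant: 8 of the 11 PC3 regions had a peak in all 9 lists, and 1 was gained at day 10. The widest PC3 peak spanned 1663 to 1827 bp in controls and 855 to 1161 bp at day 10, while the number of peaks went from 10 in each control to 11 to 13. An intragenic region 27.0 kb after the start covered 1449, 1663 and 1559 bp in controls and 643, 1116 and 606 bp at day 10. Other regions did not shrink: the one 97.2 kb after the start covered 287, 279 and 274 bp in controls and 539, 534 and 529 bp at day 10. The start-site region covered 1604 to 1827 bp in controls and 1351 to 1887 bp at day 10. In MDA-MB-231 cover was 8.77, 11.4 and 10.8 kb in controls, 8.35, 8.67 and 8.97 kb at day 1 and 8.58, 9.33 and 9.89 kb at day 10. Control list 1 lay among the treated lists there, and neither change was called (-0.23, adjusted p = 0.0681, and -0.14, adjusted p = 0.253). In the fit with the replicate number as a block the day 1 change was called (adjusted p = 0.0314). The PC3 call was lost with median-of-ratios scaling (-0.19, adjusted p = 0.12) and without scaling (-0.14, adjusted p = 0.566).

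LGR5 rose in PC3, and no change passed in MDA-MB-231. Its cover was 3.90, 2.45 and 3.08 kb in PC3 controls, 4.98, 5.56 and 5.03 kb at day 1 and 4.67, 4.14 and 4.86 kb at day 10. All treated lists exceeded all controls. The change was 0.66 (SE 0.11) at day 1 (adjusted p = 0.00203) and 0.49 (SE 0.11) at day 10 (adjusted p = 0.00264), and both held when any 1 list was left out. In MDA-MB-231 cover was 4.15, 4.19 and 4.12 kb in controls, 4.48, 4.26 and 3.88 kb at day 1 and 3.23, 3.67 and 3.85 kb at day 10, with changes of 0.01 and -0.19 (adjusted p = 0.95 and 0.218). The difference between the lines' changes was itself called, at 0.65 (SE 0.16) for day 1 (adjusted p = 0.0251) and 0.68 (SE 0.16) for day 10 (adjusted p = 0.00849). The region at the end of the gene of lower position covered 814, 710 and 809 bp in PC3 controls, 1441, 1844 and 1843 bp at day 1 and 1036, 816 and 1671 bp at day 10, against 1426 to 2117 bp in MDA-MB-231. An intragenic region, chr12:71476336-71476947, had a peak in all 9 MDA-MB-231 lists, and in 0, 2 and 3 lists of PC3 control, day 1 and day 10. Regions at -8.05 and -7.07 kb and one 142 kb into the gene (chr12:71581198-71581657) were in no MDA-MB-231 list, in 2, 1 and 1 PC3 control lists and in all 6 treated PC3 lists. In the 50000 highest-area peaks the PC3 changes were 1.65 at day 1 (adjusted p = 0.00164) and 0.73 at day 10 (adjusted p = 0.051). Fitted on the compared groups alone, with a spread of their own, they missed the threshold (adjusted p = 0.0656 and 0.0574).

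**Figure D4:**
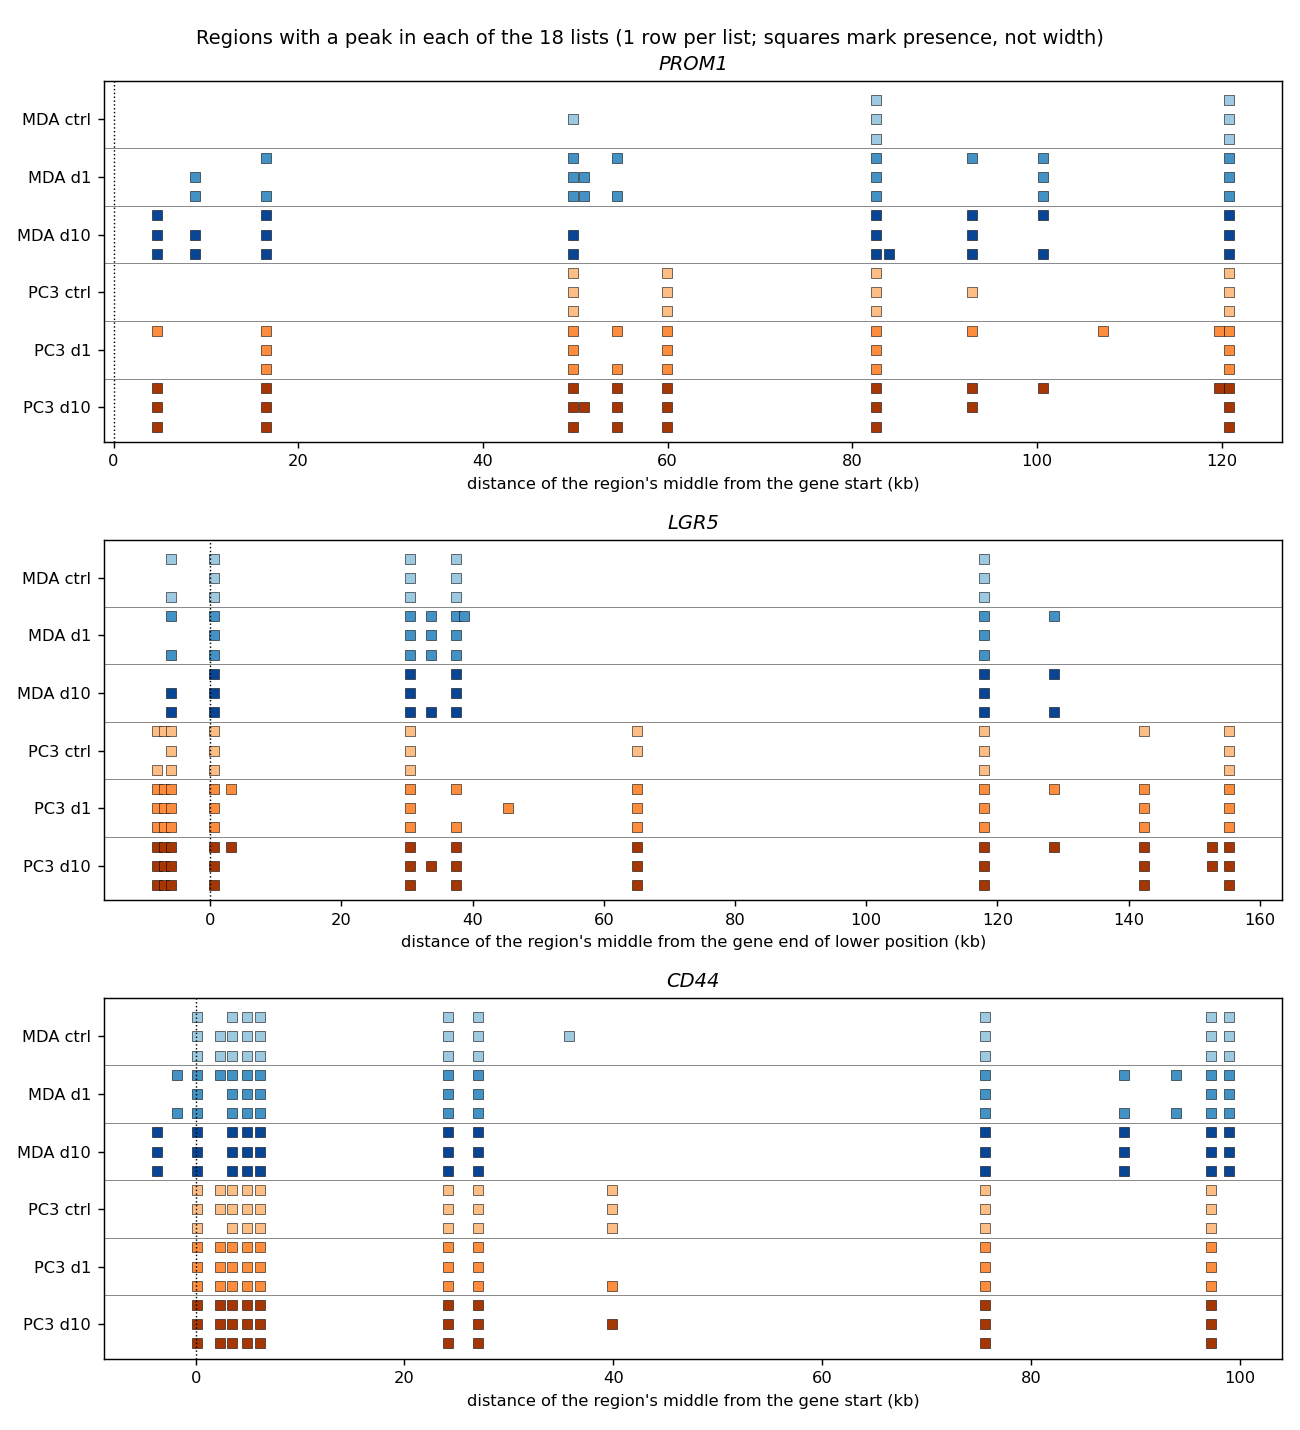
Presence of a peak in each region of PROM1, LGR5 and CD44 (1 row per list, 3 lists per group; horizontal axis is distance in kb from the gene start, or for LGR5 from its end of lower position; squares mark presence and not width). PROM1 gains intragenic regions in both lines, LGR5 has more regions in treated than in control PC3, and 8 of the 16 CD44 regions are in every list.

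Counted by comparison, members moved in both directions, in numbers near those of genes in general. At day 1 in MDA-MB-231, 1 of 8 tested members rose (PROM1) and 1 fell (SOX2), where 10.9% of all tested genes rose and 15.5% fell. At day 10, 2 rose (PROM1, NANOG) and 2 fell (SOX2, KLF4), against 11.0% and 16.7% of all genes. In PC3 at day 1, 1 rose (LGR5) and 1 fell (ALDH1A3), against 6.02% and 7.24%. At day 10 in PC3, 2 rose (LGR5, SOX9) and 3 fell (ALDH1A3, KLF4, CD44), against 11.8% and 33.1%. With 8 members tested, such counts are no result about the members as a set. The median change of the tested members was -0.08, -0.17, 0.04 and 0.02 in these comparisons, beside -0.09, -0.11, -0.07 and -0.16 over all genes. The shift of all genes depends on the scaling: with median-of-ratios scaling it was 0.0061, -0.00019, 0.0027 and 0.0024, and without scaling it was 0.04, -0.11, 0.16 and 0.05. Both treated groups of a line are compared with the same controls.

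Between day 1 and day 10 no member was called in either line by limma. Of all genes tested in MDA-MB-231, 2.13% gained and 3.24% lost cover from day 1 to day 10, and no member had an unadjusted p under 0.05. In PC3 2.19% gained and 5.50% lost cover, and KLF4 and ALDH1A3 had an unadjusted p under 0.05 (-0.23 and -0.24, adjusted p = 0.123 and 0.145). Among the 50000 highest-area peaks, CD44 (-0.93, adjusted p = 0.0029) and LGR5 (-0.92, adjusted p = 0.0462) were lower at day 10 than at day 1 in PC3.

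Whether a change differed between the lines was tested for each member. In the fit without a replicate block LGR5 was called at both times and no other member was, where 1.86% of all genes were called in its direction at day 1 and 5.82% at day 10. In the other direction these shares were 3.44% and 10.6%. For PROM1 the change in PC3 minus that in MDA-MB-231 was -0.62 and -0.55 (SE 0.23), which did not pass (adjusted p = 0.134 and 0.107). For SOX2 the difference was 0.56 (SE 0.23; adjusted p = 0.186) at day 1, so a fall particular to MDA-MB-231 was not shown. At day 1 the LGR5 difference was lost with 50 kb on each side (0.35, adjusted p = 0.128), without scaling (0.77, adjusted p = 0.06), and without MDA-MB-231 control list 2 or 3 (adjusted p = 0.0541 and 0.0507), MDA-MB-231 day 1 list 3 (0.0729), PC3 control list 2 (0.0552) or PC3 day 1 list 2 (0.0617).

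The untreated lines were called different at 7 of the 8 tested members, counting NANOG. NANOG passed the filter on low values through MDA-MB-231, so the filter itself favoured a difference between the lines. It is therefore given as levels, and its call is not read as a tested difference. PC3 was higher than MDA-MB-231 for SOX9 (0.44, SE 0.098, adjusted p = 0.000813), PROM1 (0.51, SE 0.16, adjusted p = 0.00982) and ALDH1A3 (0.27, SE 0.099, adjusted p = 0.0226). It was lower for CD44 (-0.47, SE 0.091, adjusted p = 0.000232), LGR5 (-0.37, SE 0.11, adjusted p = 0.00833) and KLF4 (-0.28, SE 0.091, adjusted p = 0.0115). For SOX2 the difference was 0.02 (SE 0.16). Cover of the NANOG window, all of it beyond the gene, was 0.661 to 0.854 kb in MDA-MB-231 controls and 0.215 to 0.224 kb in PC3 controls. Line differences are widespread, with 21.0% of all genes higher and 44.3% lower in PC3 and a median of -0.20 over all genes, and 0.00 with median-of-ratios scaling. KLF4 did not keep its direction: within the gene body alone PC3 was higher by 0.54 (adjusted p = 0.000509), and relative to the chromosome's cover by 0.22 (adjusted p = 0.0339). CD44 lost its call in the gene body alone (-0.27, adjusted p = 0.0588) and relative to the chromosome (-0.13, adjusted p = 0.226). LGR5 lost its call with median-of-ratios scaling (-0.15, adjusted p = 0.222). ALDH1A3 lost it with 50 kb on each side (0.11, adjusted p = 0.187), and without MDA-MB-231 list 2 or 3 or PC3 list 1 (adjusted p from 0.0593 to 0.0767). PROM1 lost it without MDA-MB-231 list 1 (adjusted p = 0.0642), and KLF4 and LGR5 without PC3 list 2 (0.0886 and 0.066).

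Ordered by mean cover over all 6 groups, SOX9 ran from PC3 day 10 (6.26 kb) through PC3 day 1 and PC3 control to the 3 MDA-MB-231 groups, which overlapped each other. CD44 showed the opposite order, with the 3 MDA-MB-231 groups (8.66 to 10.3 kb) overlapping each other and standing above PC3 control, day 1 and day 10 in turn. NANOG was higher in all MDA-MB-231 groups than in any PC3 group. PROM1 was lowest in MDA-MB-231 controls, next in PC3 controls, and the 4 treated groups, at 2.82 to 3.15 kb, overlapped each other in sequence. LGR5 was highest in PC3 at day 1 (5.19 kb) and lowest in PC3 controls (3.14 kb). For ALDH1A3, PC3 controls (5.71 kb) stood apart from the other 5 groups, each of which overlapped the next.

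Seen as single regions, peaks near the members were gained at about the rate of all regions and rarely lost. In MDA-MB-231, 4 of 60 member regions were gained at day 1 and 0 lost, where 7.86% of all 152339 regions were gained and 0.684% lost. At day 10, 7 were gained and 1 lost, against 10.0% and 0.909%, and from day 1 to day 10, 2 were gained and 1 lost, against 2.31% and 2.49%. In PC3, 1 of 66 was gained at day 1 and 0 lost, against 4.28% and 0.407% of 194853 regions. At day 10 in PC3, 7 were gained and 0 lost, against 10.4% and 1.33%, and from day 1 to day 10 none changed, against 2.55% and 1.07%. The day 10 gains in MDA-MB-231 were 3 in PROM1, 2 in CD44 and 1 each in NANOG and SOX9, and in PC3 3 in PROM1, 2 in SOX9 and 1 each in CD44 and LGR5. Only KLF4 lost a region. Treated lists held more peaks than controls, and when lists were cut to their 50000 highest-area peaks 1 region was gained at day 10 in each line, against 7 with all peaks.

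Over both lines the members had 80 regions. Of these, 23 had a peak in all 18 lists (28.8%, against 19.8% of 232139 regions), 3 were in all MDA-MB-231 and no PC3 lists (3.75%, against 2.59% of all regions) and 4 the reverse (5%, against 6.14%). CD44 held 8 of the constant regions, and KLF4, LGR5 and ALDH1A3 held 3 each. The open starts of SOX2, KLF4, CD44 and ALDH1A3 are among the constant regions by definition, as open meant a peak in 18 of 18 lists. The regions at the lower-position ends of SOX9 and LGR5 were constant too. ALDH1A3 also had a constant region beyond its end, and NANOG a constant region beyond the gene, 17.8 kb after its start. The regions kept to MDA-MB-231 lay by KLF4, CD44 and ALDH1A3, and those kept to PC3 by SOX2, SOX9, PROM1 and LGR5.

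Among 82 related genes in 6 lists, 77 were tested. In MDA-MB-231, 9 rose and 10 fell at day 1 (11.7% and 13%, beside 10.9% and 15.5% over all genes), and 10 rose and 17 fell at day 10 (13% and 22.1%, beside 11.0% and 16.7%). In PC3, 5 rose and 2 fell at day 1 (6.49% and 2.6%, beside 6.02% and 7.24%), and 9 rose and 14 fell at day 10 (11.7% and 18.2%, beside 11.8% and 33.1%). The counts of single lists below are descriptions to be read against these shares of all genes. These lists were written with earlier results of these data known.

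Of 14 tested pluripotency and reprogramming genes, 3 rose and 1 fell at day 1 and 2 rose and 1 fell at day 10 in MDA-MB-231. In PC3 1 rose and 1 fell at day 1, and 2 rose and 3 fell at day 10. Over all genes of MDA-MB-231 the shares that rose and fell were 10.9% and 15.5%, then 11.0% and 16.7%. Those of PC3 were 6.02% and 7.24%, then 11.8% and 33.1%. LIN28A, an RNA-binding protein that blocks let-7 processing, rose at day 1 in MDA-MB-231, from 1.73 ± 0.0797 to 3.38 ± 0.487 kb (0.79, adjusted p = 0.000598), and was lower again at day 10 than at day 1 (1.41 ± 0.243 kb; -1.02, adjusted p = 0.00043). ESRRB, an orphan nuclear receptor of the pluripotency network, rose at day 10 in MDA-MB-231 (1.16 to 2.59 kb; 0.91, adjusted p = 0.0033) and in PC3 (4.34 to 8.10 kb; 0.79, adjusted p = 0.0049). KLF2, a relative of KLF4, fell at day 10 in MDA-MB-231 (8.15 to 5.58 kb; -0.51, adjusted p = 0.0021). SALL4, a zinc finger factor, rose in PC3 at day 1 (1.31 to 2.12 kb; 0.52, adjusted p = 0.00985) and KLF5 fell there (1.82 to 1.27 kb; -0.38, adjusted p = 0.0372). The list's median change was -0.04 in MDA-MB-231 and -0.10 in PC3 at day 10, beside -0.11 and -0.16 over all genes.

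Of the 14 aldehyde dehydrogenase and retinoic acid genes, MDA-MB-231 had 2 risen and 2 fallen by day 1 and 3 of each by day 10. In PC3 2 and then 3 rose, with none falling, where 6.02% and then 11.8% of all genes rose and 7.24% and then 33.1% fell. The MDA-MB-231 shares over all genes were 10.9% and 15.5% at the first time and 11.0% and 16.7% at the second. RARB, a retinoic acid receptor whose own gene responds to retinoic acid, rose in all 4 comparisons with controls. Its cover went from 1.68 ± 0.258 kb in PC3 controls to 4.12 ± 1.08 kb at day 1 (1.07, adjusted p = 0.000328) and 5.50 ± 0.531 kb at day 10 (1.47, adjusted p = 2.49e-06). In MDA-MB-231 it went from 4.67 ± 0.587 kb to 6.92 ± 1.25 kb (0.51, adjusted p = 0.0179) and 7.36 ± 0.594 kb (0.61, adjusted p = 0.00602). ALDH2, the mitochondrial acetaldehyde dehydrogenase, rose in PC3 (1.99 to 3.62 kb at day 10, 0.71, adjusted p = 9.75e-05). In MDA-MB-231 it fell at day 10 (-0.32, adjusted p = 0.0326). ALDH1A2, the third retinaldehyde dehydrogenase, was listed at 0 in all control and day 1 lists of MDA-MB-231 and at 0.541 ± 0.124 kb at day 10. CRABP2, which carries retinoic acid to the nucleus, fell at day 10 in MDA-MB-231 (7.48 to 5.54 kb; -0.39, adjusted p = 0.0101).

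Of 13 tested LGR5 and Wnt stem cell genes, 3 rose and 2 fell at day 1 and 3 rose and 3 fell at day 10 in MDA-MB-231, and 1 rose and 1 fell, then 2 rose and 3 fell, in PC3. Shares of all MDA-MB-231 genes were 10.9% higher and 15.5% lower, then 11.0% and 16.7%. For PC3 they were 6.02% and 7.24%, then 11.8% and 33.1%. R-spondins, the ligands of LGR5, were among those that rose. RSPO4 went from 1.55 ± 0.111 kb in MDA-MB-231 controls to 3.21 ± 0.592 kb at day 1 (0.85, adjusted p = 0.0013) and 2.78 ± 0.160 kb at day 10 (0.68, adjusted p = 0.00519). RSPO3 rose in PC3 (0.579 to 1.20 kb at day 1; 0.66, adjusted p = 0.0126, and 1.10 kb at day 10; 0.57, adjusted p = 0.0068), and RSPO1 was listed at 0 in PC3 controls and at 0.666 ± 0.137 kb at day 10. LGR4, the broadly expressed relative of LGR5, went the other way in PC3, from 8.77 ± 0.424 kb to 5.67 ± 0.0736 kb at day 1 (-0.59, adjusted p = 0.00219) and 6.43 ± 0.771 kb at day 10 (-0.42, adjusted p = 0.00335).

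Of 9 tested Notch genes, 0 rose in any comparison with controls, where 6.02% to 11.8% of all genes did. In MDA-MB-231 2 and then 4 fell, where 15.5% and 16.7% of all genes fell. In PC3 0 and then 3 fell, where 7.24% and 33.1% of all genes fell. The list's median at day 10 was -0.15 in MDA-MB-231 and -0.17 in PC3, close to the -0.11 and -0.16 of all genes. NOTCH1, a receptor, fell at day 10 in MDA-MB-231 (13.1 to 7.85 kb; -0.70, adjusted p = 0.00241) and PC3 (4.60 to 3.06 kb; -0.52, adjusted p = 0.0101). JAG2, a ligand, fell in MDA-MB-231 from 17.1 ± 3.49 kb to 7.22 ± 0.699 kb at day 1 (-1.18, adjusted p = 0.00904) and 7.72 ± 1.72 kb at day 10 (-1.10, adjusted p = 0.0114), and HES1, a target gene, fell at day 10 in both lines (-0.29, adjusted p = 0.00186, and -0.16, adjusted p = 0.0418).

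Of 15 other stem cell surface markers, 3 had fallen by day 1 in MDA-MB-231, none of them in PC3, and by day 10 each line had 1 risen and 4 fallen. Among all genes of MDA-MB-231, 10.9% and then 11.0% rose while 15.5% and then 16.7% fell. The PC3 shares were 6.02% and 11.8% for rises, 7.24% and 33.1% for falls. ITGA6, an integrin subunit used to sort mammary stem cells, fell in MDA-MB-231 at both times (9.99 to 7.87 and 7.86 kb; adjusted p = 0.0109 and 0.00955). CD24, whose absence from cells that carry CD44 defines a stem-like breast fraction, fell in PC3 at day 10 (to 1.07 ± 0.390 kb, -0.85, adjusted p = 0.00122). ITGB1 fell at day 1 in MDA-MB-231 (4.12 to 2.62 kb; -0.58, adjusted p = 0.00554) and at day 10 in PC3 (7.30 to 4.85 kb; -0.54, adjusted p = 0.00412). Of 12 CD44 partners, each line had 1 risen and 0 fallen by day 1. By day 10 MDA-MB-231 had 1 risen and 2 fallen, and PC3 had 1 of each, to be set against the same shares. HAS1, which makes the CD44 ligand hyaluronan, rose in MDA-MB-231 (1.69 to 2.80 and 3.43 kb; adjusted p = 0.0151 and 0.00118). SPP1 (osteopontin), another CD44 ligand, rose in PC3 (0.451 to 0.867 and 0.911 kb; adjusted p = 0.0297 and 0.00674). ESRP2, a splicing factor that keeps CD44 in its epithelial isoforms, fell at day 10 in both lines (-0.30, adjusted p = 0.0078, and -0.36, adjusted p = 0.00166).

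**Figure D5:**
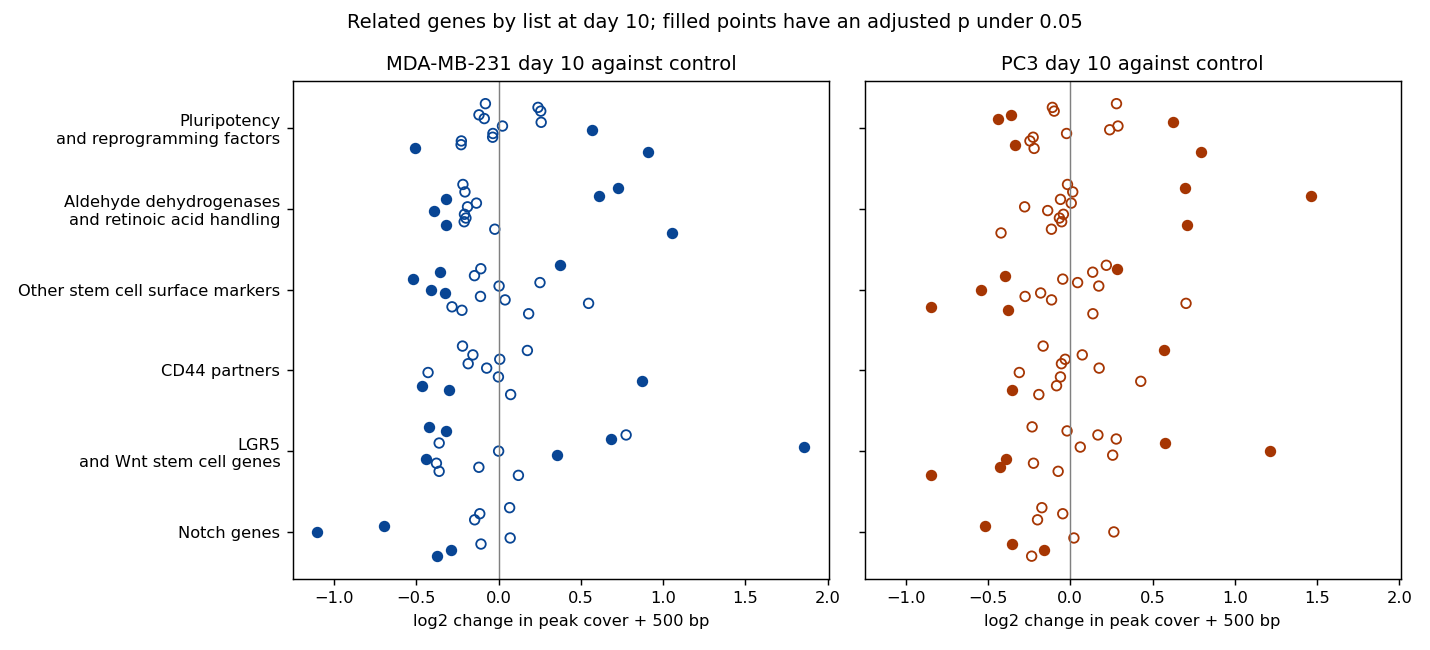
Log2 change of peak cover + 500 bp at day 10 against control (horizontal axis) for the 77 tested related genes in 6 lists, MDA-MB-231 on the left and PC3 on the right; each point is a gene, filled when called at an adjusted p under 0.05. No Notch gene is called higher in either line, and the PC3 genes called in the aldehyde dehydrogenase and retinoic acid list are all higher.

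The genes whose cover over the 18 lists was most like a member's were found by Pearson's r on log2(cover + 500 bp), leaving out genes within 1 Mb. For CD44 these were ZNF227 (r = 0.977), FUT1 (0.973) and MTREX (0.97), for SOX9 CD200R1L (0.97), TGFB2 (0.968) and TMTC1 (0.954), and for NANOG COL25A1 (0.969) and ZNF599 (0.963). KLF4 was most like CPT1B (0.958), SOX2 like GLRX5 (0.918), ALDH1A3 like SCLY (0.923), PROM1 like PPP2R2B (0.908) and LGR5 like CALHM5 (0.859). These values describe 18 lists that share 2 lines, their list lengths and the scaling, and the best of 16816 genes is high for any gene.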

How the data were processed

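ATAC-seq of 54 sequenced samples gave 18 deposited peak lists, 1 per biological replicate, of which each had 3 experimental replicates. The sources used here do not say how these were merged. Per the submitters' processing notes, the tools included Genrich 0.6.2, Bowtie2 2.3.5.1, SAMtools 1.6, Picard, FastQC 0.12.1 and R 4.4.1, with build GRCh38. The lists have no header and hold positions, the authors' peak score (read as an area, lowest value 200) and a deposited −log10 p, which was not tested here; without read counts depth is unknown. Bases under peaks were summed from 10 kb below to 10 kb above each gene, scaled to the lists' mean covered length, and log2(bp + 500) was fitted for 6 groups with limma 3.58.1 (R 4.3.3; trend, 12 residual degrees of freedom) over 16816 genes with at least 500 bp in 3 lists. Regions are merged peaks of a line, matched by at least 1 bp. The members and lists were chosen with earlier results of these data known. All 9 members are named, with up to 3 called genes of smallest p per related list and comparison and the 3 genes most alike; some genes that this rule names are not reported here. The procedure was tested on simulated data. Same-numbered lists deviated together (every r over 0.1) for MDA-MB-231 day 1 against control (0.389, 0.235, 0.193), MDA-MB-231 day 10 against day 1 (0.419, 0.31, 0.197) and PC3 day 10 against day 1 (0.345, 0.132, 0.216), and not in the other comparisons; the pairing comes from the data, as the labels do not say what a number shares. Alternatives changed the scaling, peak number, pseudocount, filter, flank, overlap, groups fitted, replicate block and lists included. Python 3.11.15, pandas 2.3.3 and numpy 2.4.6 were used.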

Additional observations from a re-analysis of the deposited data

Results flagged for a closer look

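LGR5 changed differently in the lines. The change in PC3 minus the change in MDA-MB-231 was 0.6473 at day 1 and 0.6806 at day 10 on the log2 scale, by limma's test of the difference itself over 3 lists per group (adjusted p = 0.0251 and 0.00849). All 6 treated PC3 lists were above the 3 PC3 controls. Groups of 3 lists are too small for a test of single outlying lists.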

How the results depend on the processing

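Of 238 combinations of a called member with another setting, 184 kept direction and call, 47 lost the call and 7 reversed; of 144 that left out 1 list, 112 kept the call, 32 lost it and 0 reversed. The reversed values were, in the 50000 highest-area peaks, SOX2 of MDA-MB-231 (0.0553 at day 1, 0.0694 at day 10), KLF4 in MDA-MB-231 at day 10 (0.1843) and KLF4 between untreated lines (0.3614); in the gene body alone, ALDH1A3 in PC3 at day 1 (0.2773) and KLF4 between untreated lines (0.5391); and relative to the chromosome, KLF4 between untreated lines (0.2248). The cause was not tested.

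Members called at day 1 in MDA-MB-231 numbered 2, and 1 without scaling and 0 in the 50000 highest-area peaks; at day 10 they numbered 4, and 2 without scaling, 2 with median-of-ratios scaling, 0 in the 50000 peaks and 2 in the gene body alone. In PC3 they numbered 2 at day 1, and 1 with median-of-ratios scaling, 1 in the gene body and 0 in a fit of only the groups compared; at day 10 they numbered 5, and 3 without scaling, 2 in the 50000 peaks and 3 in the gene body. Between day 1 and day 10 in PC3 they numbered 0, and 2 in the 50000 peaks and 1 with 50 kb on each side. Between untreated lines they numbered 7, NANOG included, and 4 in the 50000 peaks and 4 in the gene body. For the difference between the lines' changes they numbered 1 at each time, and at day 1 0 without scaling and 2 in the gene body, and at day 10 4 with 50 kb on each side. Leaving out 1 list gave 1 to 2 calls at day 1 and 1 to 4 at day 10 in MDA-MB-231, 1 to 2 and 4 to 6 in PC3, 0 between day 1 and day 10 in both lines, 5 to 7 between untreated lines, and 0 to 1 and 1 to 2 for the difference between lines.

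With the replicate block, 2 members were called for the difference between the lines at day 1 and 3 at day 10: PROM1 (adjusted p = 0.0188 and 0.0148), ALDH1A3 at day 10 (adjusted p = 0.0296) and LGR5. PROM1 was then also called in PC3 (adjusted p = 0.0254 and 0.0124), and CD44 at day 1 in MDA-MB-231 (adjusted p = 0.0314). Between untreated lines LGR5 (-0.27, adjusted p = 0.137) and ALDH1A3 (0.06, adjusted p = 0.654) were not called, against -0.37 and 0.27 without the block. Every group has a list of each replicate number, so a block shared by all groups would not move these estimates. The block values between untreated lines are therefore not block-adjusted line differences, and no loss of a call is read from them. The counts of lost calls above include them. The other 20 of 22 calls were kept, with the same limit for those between untreated lines.

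In MDA-MB-231, 4 regions were gained by day 1, and 1 in the 50000 peaks and 9 with 50 kb flanks; lost ones 0, and 1 in the 50000 peaks. At day 10, 7 were gained, and 1 in the 50000 peaks and 11 with 50 kb; 1 was lost, and 0 in the gene body and 2 with 50 kb. From day 1 to day 10, 2 were gained, and 1 in the 50000 peaks and 1 in the gene body; 1 was lost, and 0 in the 50000 peaks, 0 in the gene body, 2 when peaks had to cover 50% of a region and 2 with 50 kb. In PC3 at day 1, 1 was gained, and 5 with 50% overlap and 2 with 50 kb; 0 were lost, and 1 in the 50000 peaks and 1 with 50 kb. At day 10, 7 were gained, and 1 in the 50000 peaks; 0 were lost, and 3 in the 50000 peaks, 1 with 50% overlap and 2 with 50 kb. From day 1 to day 10, 0 were gained, and 1 with 50 kb; 0 were lost, and 2 in the 50000 peaks. Leaving out 1 list gave 4 to 9, 7 to 9 and 2 to 4 gained and 0 to 1, 1 to 3 and 1 to 4 lost in MDA-MB-231, and 1 to 5, 7 to 10 and 0 to 3 gained and 0 to 1, 0 to 1 and 0 to 1 lost in PC3.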
